A study of Mus musculus with 12 samples.

Results

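The response of the mouse left ventricle to constitutive deletion of Ddx5 in cardiomyocytes was set against its response to acute deletion, gene by gene. The quantity tested was the difference of effects, that is the log2 fold change of the constitutive knockout over its controls minus the log2 fold change of the inducible knockout over its own controls. All 12 libraries of the series entered the comparison, and the genes were the 16673 present in both deposited count tables, of 17912 present in either. After a filter on low counts, 13871 genes were tested. A positive difference means that a gene was higher, or fell less, after constitutive than after acute deletion, each relative to its own controls.

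The constitutive knockout (mCKO) carried floxed Ddx5 alleles and a Cre recombinase under the Myh6 promoter, and was untreated and sampled at 8 weeks of age beside floxed mice of the same age without Cre (CTR1). The inducible knockout (iCKO) carried floxed Ddx5 alleles and Myh6-driven MerCreMer, a Cre held outside the nucleus by oestrogen receptor sequence until tamoxifen releases it. It and its floxed controls without Cre (CTR2) were given tamoxifen at 20 mg/kg per day for 5 days, and the design text names 7 days of tamoxifen before the tissue was taken; which of the 2 counts sets the interval is not stated. Each group held 3 libraries of male left ventricle. The iCKO and CTR2 mice were matched in age, but the age is not given. Because neither control group carried Cre, an effect of the Cre proteins and loss of Ddx5 cannot be told apart, and because tamoxifen was given in the iCKO experiment alone, time since deletion, tamoxifen and experiment cannot be told apart in the difference either. The labels do not say whether replicates were separate animals, so the p-values cover the spread among these libraries, which may be technical.

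DDX5 is a DEAD-box RNA helicase that unwinds RNA duplexes and takes part in transcription, pre-mRNA splicing and ribosome assembly. Myh6 encodes the alpha myosin heavy chain of cardiomyocytes, and its promoter is active in the ventricle from around birth, so a constitutive Myh6-Cre deletes the gene early and the tissue then grows without it. A tamoxifen-induced deletion removes the gene from cardiomyocytes that matured with it. The adult ventricle draws its energy mainly from fatty acid oxidation, and under stress it commonly lowers metabolic genes and turns back on genes of the fetal heart.

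The libraries held between 19682268 and 25871882 gene counts, and cardiomyocyte markers were abundant in all 12. In principal components, replicate 3 of CTR1 and of mCKO stood apart together from replicates 1 and 2, with deviations from their group means that correlated at r = 0.80 across 13871 genes. Without these 2 libraries, the calls for Hand2, Gdf15, Map1a and Lif among the named genes were lost. Libraries of the iCKO experiment also stood apart within their groups. Chi-square per degree of freedom between libraries was 148.3 and 114.2 for iCKO replicate 3, against 23.6 between iCKO replicates 1 and 2. It was 50.6 and 38.3 for CTR2 replicate 2, against 11.4 between CTR2 replicates 1 and 3. Levels are library-scaled counts (CPM, with TMM factors), a call means a two-sided adjusted p below 0.05 over all genes tested, and values after ± are standard errors unless SD is named. A library with a count of 0 allows up to 3 counts, or 0.103 to 0.156 CPM, which covers counting error only.

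The effects differed between the models for 2892 of 13871 genes (20.8% of all genes tested), 1521 with a higher and 1371 with a lower effect in mCKO than in iCKO (11% and 9.88%). The absolute effect was larger in iCKO for 2844 of these 2892 genes (98.3%). Over all genes tested the standard deviation of the log2 effect was 0.40 in mCKO and 1.19 in iCKO. The effects had the same sign in both models for 65.9% of all genes tested and for 65.1% of the genes called for the difference. Across the 13871 genes, which are not independent replicates, the effects correlated at Pearson r = 0.38 and Spearman rho = 0.44. The models share no library. With scaling by library totals alone, the median difference over all genes moved from 0.03 to -0.14, and the calls moved from 1521 higher and 1371 lower to 1103 higher and 2145 lower (7.95% and 15.5% of all genes; 52.6% and 34.0% of the calls were higher).

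Calls within each model sorted these genes into classes. In the fit of all 12 libraries, 24 genes were called in mCKO (0.173%) and 6474 in iCKO (46.7%). Among the 2892 genes, 2828 were called in iCKO only, 3 in mCKO only, 5 in both models in opposite directions and 8 in both in 1 direction, while 48 were called in neither model alone. The 2828 iCKO only genes had a median absolute effect of 0.18 in mCKO and 1.36 in iCKO, and 63.2% of them had an absolute effect under 0.25 in mCKO. All 48 genes called in neither model had effects of opposite sign in the 2 models. The selection nearly fixes this, because a difference is larger than both effects only where their signs are opposite.

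These classes depended strongly on how the mCKO effect was tested. Replicate 3 of mCKO and of CTR1 deviated together, as did replicates 1 and 2 of both in every combination, so mCKO and CTR1 were also fitted alone with the replicate number as a block, beside iCKO and CTR2 in a fit of their own, and the difference was tested with the block in the mCKO experiment. This paired analysis was added after the data had been seen, and it changed 2 choices together, the separate fit and the block. With the block in the fit of 12 libraries 47 genes were called in mCKO (0.339%). In a separate edgeR fit of mCKO and CTR1 without a block 0 were called, with 1164 at an unadjusted p under 0.05. The paired analysis called 1839 of 13353 genes in mCKO (13.8%; 7.32% up and 6.45% down), 6042 of 13516 in iCKO (44.7%) and 3702 of 13871 for the difference (26.7%). Of these 3702 genes, 2673 were called in iCKO only, 640 in both in 1 direction, 104 in opposite directions, 81 in mCKO only and 74 in neither. Another 130 were not in 1 of the 2 separate fits. All 640 genes called in 1 direction had the larger effect in iCKO. Where the paired fit called a named gene in mCKO and the fit of 12 libraries did not, the paired effect is given, and such a call rests on use of the block. Of these genes, Ssbp2, Slc9a3, Nppa and Timp1 were also called in mCKO with the block in the edgeR fit of 12 libraries (adjusted p = 0.039, 0.038, 0.035 and 0.033).

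**Figure D1:**
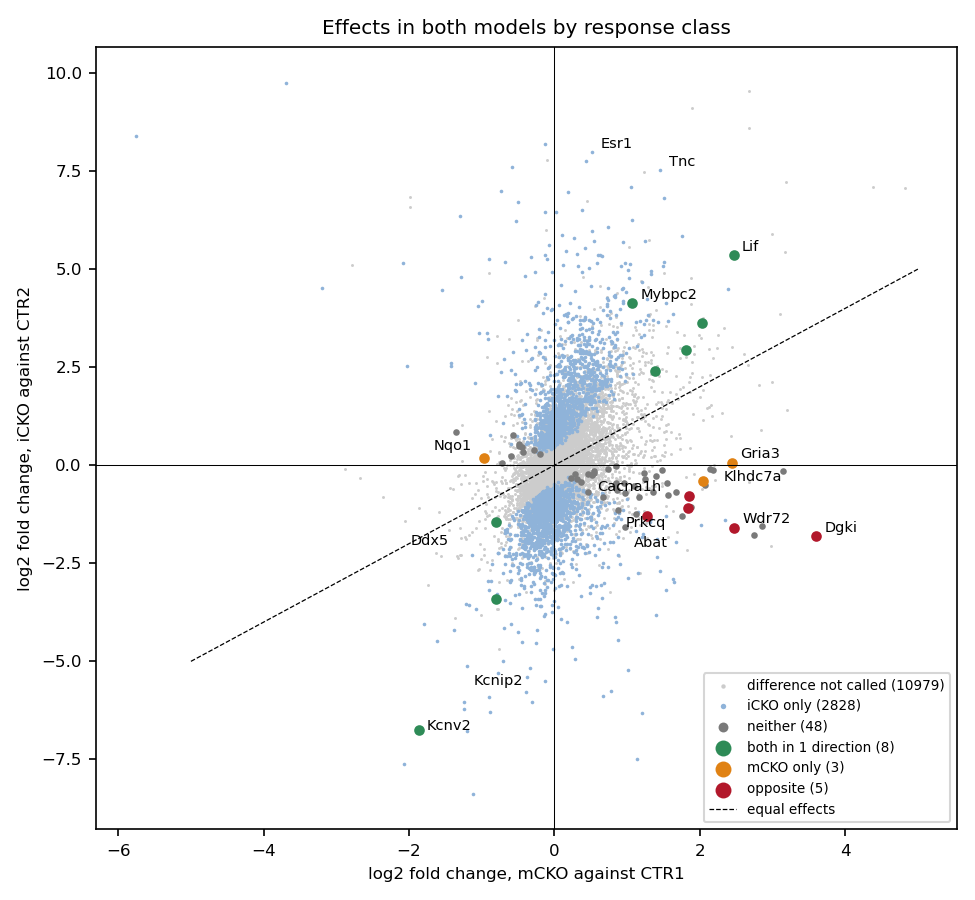
Log2 fold change in mCKO against CTR1 (x axis) and in iCKO against CTR2 (y axis) for the 13871 genes tested, coloured by response class in the fit of 12 libraries; the dashed line marks equal effects. Most called genes lie far along the iCKO axis and close to 0 on the mCKO axis, and the 5 opposite genes lie at the lower right, higher in mCKO and lower in iCKO.

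No difference in response was called for the targeted gene. Ddx5 (Entrez 13207, chromosome 11, 106780355 to 106789185 in GRCm38.p6) was measured at 637, 635 and 396 CPM in CTR1, 233, 231 and 216 in mCKO, 572, 712 and 610.1 in CTR2 and 209, 214 and 196 in iCKO. Every knockout library lay below every library of its own controls. The effect was -1.30 ± 0.18 in mCKO and -1.61 ± 0.18 in iCKO, and the difference of 0.32 ± 0.25 was not called (adjusted p = 0.39). Ddx17, the paralog of Ddx5, had a difference of -0.07 ± 0.37 (adjusted p = 0.91). Camk2d, which encodes the calcium/calmodulin-dependent kinase named in the series title, had a difference of -0.02 ± 0.36 (adjusted p = 0.98). Gene counts do not separate the splice forms of Camk2d.

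The fit of 12 libraries called 5 genes in opposite directions, each higher in mCKO and lower in iCKO, and for Dgki the iCKO side rests on libraries near the limit of 3 counts. They encode an enzyme of the neurotransmitter GABA, signalling enzymes of the diacylglycerol pathway, a calcium channel and a WD-repeat protein. Prkcq encodes protein kinase C theta, which is activated by diacylglycerol (Entrez 18761, chromosome 2, 11171905 to 11301226). Levels were 3.96, 5.58 and 4.12 CPM in CTR1, 21.1, 12 and 15.5 in mCKO, 4.85, 6.16 and 7.92 in CTR2 and 3.04, 2.96 and 2.85 in iCKO. All mCKO libraries were above all 9 others, and the iCKO libraries were below all of their controls. The effects were 1.83 ± 0.25 in mCKO (adjusted p = 0.012) and -1.10 ± 0.25 in iCKO (adjusted p = 0.0037), and the difference was 2.93 ± 0.35 (adjusted p = 2.6e-04).

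Cacna1h encodes the pore subunit of the T-type calcium channel Cav3.2, which the ventricle carries mainly before birth and in disease (Entrez 58226, chromosome 17, 25374285 to 25436334). Levels were 29.2, 30.4 and 30.3 CPM in CTR1, 129, 120.1 and 75.6 in mCKO, 29.9, 27.5 and 29.2 in CTR2 and 18.9, 20.5 and 11.3 in iCKO. Controls of both experiments lay close together, with the mCKO libraries well above and the iCKO libraries below them. The difference was 2.63 ± 0.32 (adjusted p = 3.0e-04), from 1.85 ± 0.23 in mCKO and -0.77 ± 0.23 in iCKO. Abat encodes GABA transaminase, which breaks down GABA in mitochondria (Entrez 268860, chromosome 16, 8513429 to 8621568). Levels were 13.5, 17.6 and 19.5 CPM in CTR1, 37.3, 44 and 40.9 in mCKO, 41.5, 42.6 and 49.8 in CTR2 and 20.5, 17.9 and 16.1 in iCKO. Its groups did not overlap within either model, but the 2 control groups also differed (-1.40 ± 0.16, adjusted p = 0.0032), so that mCKO stood near the level of CTR2 and iCKO near that of CTR1. The difference was 2.57 ± 0.22 (adjusted p = 5.4e-05).

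Dgki and Wdr72 were too low in abundance for the rule that chose named genes, and are given because the class holds so few genes. Dgki encodes diacylglycerol kinase iota, which converts diacylglycerol to phosphatidic acid (Entrez 320127, chromosome 6, 36837381 to 37300955). Levels were 0.489, 0.208 and 0.416 CPM in CTR1, 4.42, 4.05 and 5.28 in mCKO, 0.511, 1.06 and 0.208 in CTR2 and 0.141, 0.276 and 0.0761 in iCKO. Each mCKO library was above all 9 others, and the CTR2 and iCKO libraries overlapped near the limit of 3 counts, so the fitted iCKO effect depends on the prior count. Its difference was 5.41 ± 0.79 (adjusted p = 8.4e-04). Dgki failed the filter on low counts in the separate iCKO fit, and the paired analysis gave it no class. Wdr72, which encodes a WD-repeat protein known from tooth enamel formation (Entrez 546144, chromosome 9, 74110331 to 74283203), was measured at 1.08, 0.938 and 0.694 CPM in CTR1, 6.34, 4.80 and 3.91 in mCKO, 1.18, 0.819 and 0.938 in CTR2 and 0.318, 0.448 and 0.190 in iCKO. Groups did not overlap within either model, the iCKO libraries were close to the limit of 3 counts, and the difference was 4.06 ± 0.50 (adjusted p = 2.8e-04).

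The paired analysis put 104 genes in the opposite class, 78 up in mCKO and down in iCKO, and 26 the other way. In 57 of the 104, knockout and control libraries did not overlap in either model. Among all 2892 genes of the main call, 160 (5.53%) had groups that did not overlap in opposite directions, against 214 of all 13871 genes tested (1.54%). The genes of this class given here, Ubxn10, Edn3, Ccng1, Gadd45g, Fhl1, Fkbp10 and Hand2, were not called in mCKO in the fit of 12 libraries, with or without the block. Up in mCKO and down in iCKO in the paired analysis was Ubxn10, a UBX-domain protein gene linked to cilia, with 3.28, 2.97 and 3.61 CPM in CTR1, 11.5, 7.00 and 7.40 in mCKO, 6.74, 13.4 and 8.65 in CTR2 and 1.20, 0.482 and 0.342 in iCKO. Its difference was 5.20 ± 0.56 (adjusted p = 1.7e-04), with an mCKO effect of 1.37 ± 0.17 in the paired fit (adjusted p = 7.9e-04, and 0.23 in the fit of 12 libraries). Its CTR2 libraries were all above its CTR1 libraries. Edn3, which encodes the vasoactive peptide endothelin 3, had a difference of 4.15 ± 0.79 (adjusted p = 0.0039), from 1.49 ± 0.18 in mCKO and -2.65 ± 0.55 in iCKO in the separate fits (adjusted p = 0.46 for mCKO in the fit of 12 libraries).

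Ccng1, which encodes cyclin G1 and is a p53 target, belonged to the same paired class. Levels were 973, 981 and 1006 CPM in CTR1, 1214, 1277 and 1341 in mCKO, 1299, 1042 and 1047 in CTR2 and 484, 453 and 367 in iCKO. The mCKO libraries were above CTR1 and the iCKO libraries below CTR2, without overlap in either model. The paired mCKO effect was 0.38 ± 0.06 (adjusted p = 0.0025), the iCKO effect was -1.38 ± 0.14, and the difference was 1.75 ± 0.20 (adjusted p = 1.9e-04). In the fit of 12 libraries its mCKO effect of 0.37 ± 0.14 was not called (adjusted p = 0.5).

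In the paired analysis, genes down in mCKO and up in iCKO included Gadd45g, Fhl1, Fkbp10 and Hand2. Gadd45g encodes a stress-induced regulator of p38 signalling and was measured at 25.2, 18.5 and 20.3 CPM in CTR1, 12.2, 12.9 and 13.4 in mCKO, 9.40, 25.4 and 13.3 in CTR2 and 65.9, 77.5 and 108 in iCKO. Its mCKO libraries were below all 3 CTR1 libraries, and its iCKO libraries were above all 9 others. The difference was -3.11 ± 0.43 (adjusted p = 6.3e-04), with a paired mCKO effect of -0.72 ± 0.12 (adjusted p = 0.003, against 0.59 in the fit of 12 libraries and 0.47 with the block in that fit). Fhl1 encodes a LIM protein of the sarcomere that rises with mechanical load. Levels were 146, 141 and 233 CPM in CTR1, 109.7, 98.8 and 152 in mCKO, 181, 234 and 194 in CTR2 and 840.3, 731 and 985 in iCKO. CTR1 and mCKO overlapped in value, with replicate 3 the highest in each, while each mCKO library was below the CTR1 library of the same number. The difference was -2.60 ± 0.32 (adjusted p = 3.1e-04), and the paired mCKO effect was -0.51 ± 0.07 (adjusted p = 8.2e-04, against 0.6 in the fit of 12 libraries and 0.2 with the block in that fit).

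Fkbp10 encodes a collagen-folding prolyl isomerase, and its difference was -1.93 ± 0.22 (adjusted p = 1.8e-04), from -0.48 ± 0.07 in the paired mCKO fit (adjusted p = 0.0023, against 0.34 and 0.27 in the fit of 12 libraries without and with the block) and 1.48 ± 0.18 in iCKO. Hand2, a transcription factor of heart development, had a difference of -1.0 ± 0.30 (adjusted p = 0.033), with a paired mCKO effect of -0.26 ± 0.07 (adjusted p = 0.029, against 0.96 and 0.81 in the fit of 12 libraries without and with the block). The call for the difference was lost without mCKO replicate 1, CTR2 replicate 1 or CTR2 replicate 2 (adjusted p = 0.074, 0.057 and 0.051), and at 0.057 without replicate 3 of both mCKO and CTR1. Hand2os1, a gene on the opposite strand, covers 19.6% of the exonic bases of Hand2, and whether counting used the strand is not given in the sources used here.

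Only 3 genes were called in mCKO and not in iCKO in the fit of 12 libraries. Klhdc7a, which encodes a kelch-domain protein (Entrez 242721, chromosome 4, 139962173 to 139968026), was measured at 16.1, 14.4 and 9.21 CPM in CTR1, 52.5, 64.3 and 46.9 in mCKO, 10.7, 17.4 and 10.1 in CTR2 and 11.4, 12.6 and 5.06 in iCKO. All mCKO libraries were above all 9 others, which overlapped one another. The difference was 2.44 ± 0.47 (adjusted p = 0.004), from 2.05 ± 0.33 in mCKO and -0.39 ± 0.33 in iCKO (adjusted p = 0.35).

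Gria3, the gene of an AMPA-type glutamate receptor subunit (Entrez 53623, chromosome X, 41400819 to 41678601), was measured at 1.81, 2.35 and 1.11 CPM in CTR1, 8.62, 13.4 and 6.69 in mCKO, 2.09, 2.46 and 2.35 in CTR2 and 2.54, 2.89 and 1.79 in iCKO. Each mCKO library was again above all 9 others, and iCKO overlapped CTR2. The difference was 2.38 ± 0.46 (adjusted p = 0.0043), from 2.45 ± 0.33 in mCKO and 0.07 ± 0.32 in iCKO (adjusted p = 0.88). Nqo1, the quinone reductase gene that serves as a standard NRF2 target (Entrez 18104, chromosome 8, 107388225 to 107403205), was the gene called lower in mCKO alone. Levels were 70.2, 64.2 and 72.8 CPM in CTR1, 39.6, 31.8 and 34.5 in mCKO, 75.2, 68.1 and 73.5 in CTR2 and 100.2, 72.5 and 71.7 in iCKO. All mCKO libraries were below all 9 others, and iCKO overlapped CTR2. The difference was -1.14 ± 0.21 (adjusted p = 0.0031), from -0.97 ± 0.15 in mCKO and 0.17 ± 0.15 in iCKO.

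The paired analysis kept these 3 genes and gave 81 in all, 69 up and 12 down in mCKO. Slc9a3, a sodium/proton exchanger gene best known from kidney and gut, was measured at 2.84, 3.81 and 0.833 CPM in CTR1, 14.6, 31.7 and 19.4 in mCKO, 2.55, 0.481 and 3.02 in CTR2 and 1.98, 2.31 and 1.18 in iCKO. The mCKO libraries were above all others, and CTR2 and iCKO overlapped. Its mCKO effect was 3.17 ± 0.39 in the paired fit (adjusted p = 0.019), and its adjusted p was 0.076 in the fit of 12 libraries. Its difference was 3.28 ± 0.84 (adjusted p = 0.017), and the call was lost without mCKO replicate 2, CTR2 replicate 1 or CTR2 replicate 3 (adjusted p = 0.051, 0.052 and 0.061). Fv1, a gene of retroviral origin that restricts murine leukaemia viruses, had a difference of 1.68 ± 0.38 (adjusted p = 0.01) and a paired mCKO effect of 0.97 ± 0.09 (adjusted p = 1.2e-04, against 0.26 in the fit of 12 libraries). Its iCKO effect went the other way and was not called (-0.65 ± 0.32, adjusted p = 0.13 in the separate fit, and 0.051 in the fit of 12 libraries). All iCKO libraries of Fv1 were below all CTR2 libraries, so part of its difference came from iCKO.

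Among the genes lower in mCKO alone in the paired analysis was Ssbp2, which encodes a single-stranded DNA-binding cofactor of LIM-domain transcription complexes. Levels were 34.7, 29.1 and 36.6 CPM in CTR1, 21.7, 19.3 and 19.8 in mCKO, 33.4, 33.7 and 36.1 in CTR2 and 32.9, 34.2 and 39.7 in iCKO. All mCKO libraries were below all 9 others. The difference was -0.77 ± 0.18 (adjusted p = 0.011), from -0.71 ± 0.09 in the paired mCKO fit (adjusted p = 5.6e-04, against 0.056 in the fit of 12 libraries) and 0.09 ± 0.13 in iCKO (adjusted p = 0.61). An antisense gene, 4833422C13Rik, covers 22.1% of the exonic bases of Ssbp2. Riok3, a RIO-family kinase gene, had a difference of -0.76 ± 0.19 (adjusted p = 0.016), with a paired mCKO effect of -0.42 ± 0.06 (adjusted p = 0.0017, against 0.34 in the fit of 12 libraries). Its iCKO effect went the other way and was not called (0.37 ± 0.15, adjusted p = 0.069 in the separate fit). All iCKO libraries of Riok3 were above all CTR2 libraries (134 to 178 against 115 to 124 CPM), so part of its difference came from iCKO.

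**Figure D2:**
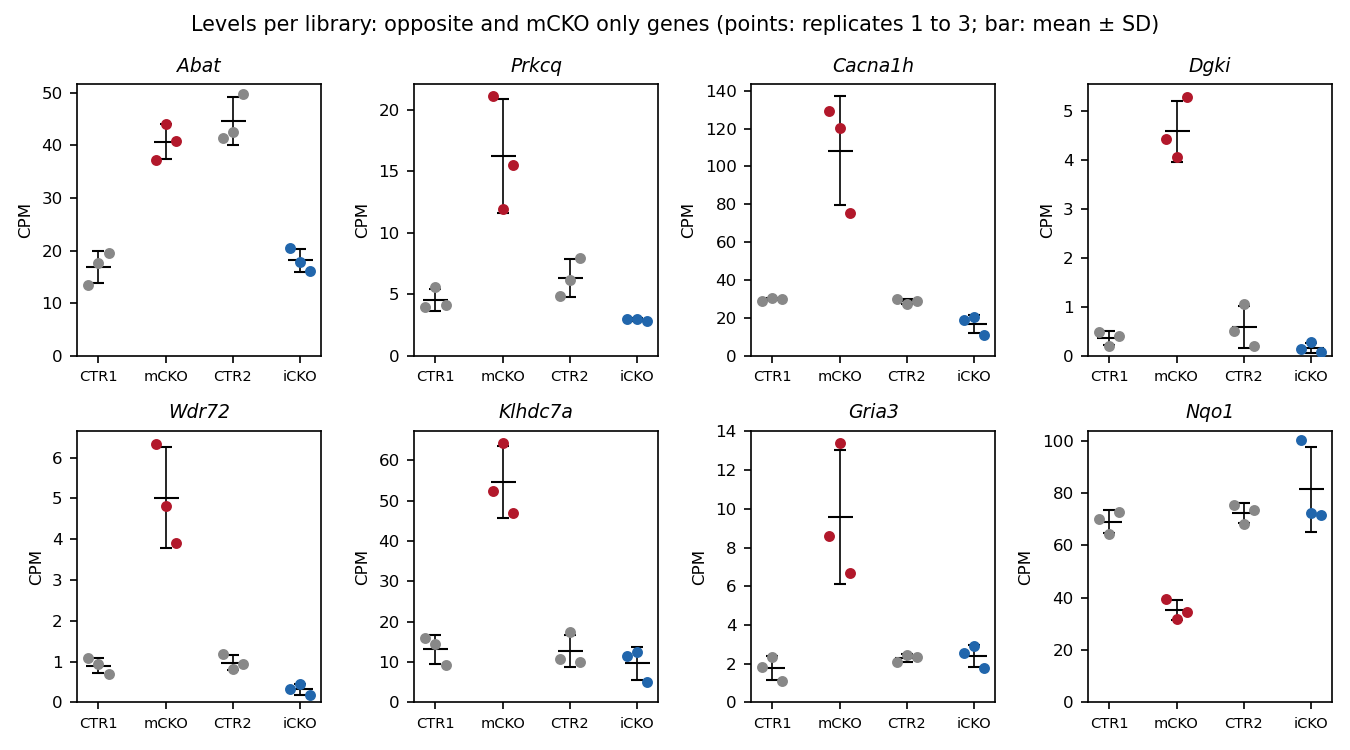
CPM in each of the 12 libraries for the 5 genes called in opposite directions and the 3 called in mCKO only; points are replicates 1 to 3 and bars are the mean with SD (n = 3). The mCKO libraries lie above CTR1 for 7 genes and below it for Nqo1, and the iCKO libraries lie below CTR2 without overlap for Abat, Prkcq, Cacna1h and Wdr72.

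The 8 genes called in both models in 1 direction had the larger effect in iCKO, in each case. Mybpc2, the fast skeletal form of myosin-binding protein C (Entrez 233199, chromosome 7, 44501699 to 44524715), was measured at 21.9, 15.8 and 18 CPM in CTR1, 34.7, 41.3 and 40.7 in mCKO, 16.4, 13.7 and 20.2 in CTR2 and 302, 316 and 272 in iCKO. It rose in both models, and the iCKO libraries were far above all 9 others. The difference was -3.08 ± 0.24 (adjusted p = 3.0e-05), from 1.07 ± 0.17 in mCKO and 4.14 ± 0.18 in iCKO. Lif, a cytokine gene of the interleukin 6 family (Entrez 16878, chromosome 11, 4257568 to 4272514), was measured at 0.196, 0.365 and 0.463 CPM in CTR1, 2.28, 1.85 and 1.62 in mCKO, 0.460, 0.337 and 0.417 in CTR2 and 9.81, 24.6 and 15.8 in iCKO. Its difference was -2.89 ± 0.61 (adjusted p = 0.0067), but the adjusted p rose to 0.051 without replicate 3 of mCKO and CTR1 and to 0.067 with limma-voom. Lif lay below the abundance set for named genes and is given because the class is small.

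Gdf15, a secreted stress cytokine, had effects of 2.04 ± 0.33 and 3.63 ± 0.34 in mCKO and iCKO, and a difference of -1.60 ± 0.46 (adjusted p = 0.03). Map1a, a microtubule-associated protein gene, had effects of 1.81 ± 0.23 and 2.93 ± 0.24, and a difference of -1.13 ± 0.32 (adjusted p = 0.028). Ncam1, a cell adhesion molecule gene, had a difference of -1.03 ± 0.23 (adjusted p = 0.0096). The call was lost for Gdf15 without CTR1 replicate 3, mCKO replicate 2, CTR2 replicate 2 or 3, or iCKO replicate 2 or 3 (adjusted p up to 0.061), and for Map1a without CTR1 replicate 3, mCKO replicate 2, CTR2 replicate 1 or 3, or iCKO replicate 1 or 2 (adjusted p up to 0.064). Both calls were also lost without replicate 3 of both mCKO and CTR1 (adjusted p = 0.091 for Gdf15 and 0.088 for Map1a) and with limma-voom (adjusted p = 0.10 and 0.051).

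Kcnv2 encodes a silent voltage-gated potassium channel subunit that modifies Kv2 channels (Entrez 240595, chromosome 19, 27322061 to 27337179). Levels were 11.4, 11.2 and 11.3 CPM in CTR1, 3.37, 3.45 and 2.45 in mCKO, 20.8, 9.63 and 14.1 in CTR2 and 0.212, 0.103 and 0.0761 in iCKO. Each mCKO library was below all 6 controls, and the iCKO libraries were near the limit of 3 counts, so the fitted iCKO effect depends on the prior count. The difference was 4.89 ± 0.49 (adjusted p = 1.0e-04), from -1.87 ± 0.28 in mCKO and -6.76 ± 0.40 in iCKO. Magix, a PDZ-domain protein gene (Entrez 54634, chromosome X, 7673166 to 7681251), was measured at 40.7, 38.5 and 40.7 CPM in CTR1, 20.9, 23.3 and 24.4 in mCKO, 34.3, 37.4 and 34.5 in CTR2 and 3.92, 2.76 and 3.23 in iCKO, and its difference was 2.61 ± 0.20 (adjusted p = 2.6e-05). Acat1, the mitochondrial thiolase of ketone and isoleucine breakdown, had effects of -0.80 ± 0.13 and -1.46 ± 0.13 and a difference of 0.65 ± 0.18 (adjusted p = 0.025). The call for Acat1 was lost without any 1 of 8 libraries, namely CTR1 replicates 1, 2 and 3, mCKO replicates 1 and 2, CTR2 replicates 1 and 3 and iCKO replicate 2 (adjusted p up to 0.0805), and with scaling by library totals (adjusted p = 0.060).

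Genes called in iCKO only made up most of those called for the difference. Kcnip2 encodes KChIP2, the auxiliary subunit of the Kv4 channels that carry the transient outward potassium current of the ventricle (Entrez 80906, chromosome 19, 45792346 to 45816422). Levels were 238, 216 and 183 CPM in CTR1, 235, 194 and 152 in mCKO, 266, 242 and 272 in CTR2 and 8.97, 4.89 and 3.35 in iCKO. CTR1 and mCKO overlapped, while the iCKO libraries were far below all 9 others. The difference was 5.37 ± 0.42 (adjusted p = 3.1e-05), and the mCKO effect was called in neither analysis (-0.13 ± 0.27 and -0.14 ± 0.07).

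Asb14 and Asb15 encode muscle-enriched subunits of cullin ubiquitin ligases. Asb14 (Entrez 142687, chromosome 14, 26894590 to 26915257) was measured at 138, 127 and 103 CPM in CTR1, 76.7, 66 and 56.2 in mCKO, 156, 159 and 149 in CTR2 and 2.79, 2.14 and 0.913 in iCKO. Both knockouts were below their controls, with effects of -0.89 ± 0.25 in mCKO (adjusted p = 0.27 in the fit of 12 libraries and 3.1e-05 in the paired fit, where the effect was -0.88 ± 0.06) and -6.30 ± 0.32 in iCKO. The difference was 5.41 ± 0.39 (adjusted p = 2.2e-05). For Asb15 the difference was 4.29 ± 0.70 (adjusted p = 0.0017), from -0.26 ± 0.06 in the paired mCKO fit and -4.54 ± 0.55 in iCKO.

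Armc2, an armadillo-repeat gene (Entrez 213402, chromosome 10, 41908463 to 42018382), was measured at 22.4, 20.1 and 25.5 CPM in CTR1, 20.2, 15.1 and 19.7 in mCKO, 46.6, 74 and 49.2 in CTR2 and 1.16, 0.827 and 0.571 in iCKO. The iCKO libraries fell near 1 CPM, mCKO and CTR1 overlapped, and CTR2 was itself above CTR1 (-1.32 ± 0.22 for CTR1 against CTR2, adjusted p = 0.026). The difference was 5.73 ± 0.35 (adjusted p = 8.4e-06), with a paired mCKO effect of -0.30 ± 0.09 (adjusted p = 0.052). Acsm5, a mitochondrial acyl-CoA synthetase gene, was measured at 7.20, 6.83 and 5.55 CPM in CTR1, 4.42, 2.10 and 1.95 in mCKO, 7.87, 12.1 and 9.59 in CTR2 and 0.106, 0.0345 and 0.114 in iCKO. Its iCKO libraries were at or below the limit of 3 counts, so its fitted difference of 5.58 ± 0.58 (adjusted p = 1.2e-04) depends on the prior count. In the paired fit its mCKO effect was -1.24 ± 0.21 (adjusted p = 0.0036). Gbp10 and Gbp6, interferon-induced guanylate-binding protein genes, had differences of 6.52 ± 1.54 and 5.32 ± 1.22 (adjusted p = 0.012 and 0.01). Gbp10 was measured at 24.5, 24.1 and 7.96 CPM in CTR1 and 70.3, 24.6 and 1.70 in mCKO, with the highest and the lowest level of the 6 libraries both in mCKO. In iCKO it was at or near 0, so its fitted difference depends on the prior count. The 2 genes share exons with Gm43302, which covers 46.3% of the exonic bases of Gbp10 and 29% of those of Gbp6, and with limma-voom the adjusted p of Gbp10 was 0.19.

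Of the genes higher in iCKO, Serpinb1a, which encodes an inhibitor of neutrophil serine proteases (Entrez 66222, chromosome 13, 32842092 to 32853206), was measured at 3.13, 2.40 and 6.89 CPM in CTR1, 2.54, 3.05 and 6.23 in mCKO, 3.12, 2.55 and 2.66 in CTR2 and 78, 117 and 214 in iCKO. The mCKO and CTR1 libraries overlapped, and every iCKO library was far above all 9 others. The difference was -5.69 ± 0.68 (adjusted p = 2.5e-04), and the mCKO effect was called in neither analysis (-0.07 ± 0.47 and -0.05 ± 0.18). Tubb3, a tubulin gene best known from neurons, was measured at 1.91, 1.62 and 1.57 CPM in CTR1, 1.27, 2.15 and 5.07 in mCKO, 0.511, 0.289 and 0.208 in CTR2 and 14, 24.9 and 30.1 in iCKO, with a difference of -5.33 ± 0.72 (adjusted p = 5.6e-04). Chil3, a chitinase-like gene of macrophages, was measured at 0.930, 0.261 and 3.28 CPM in CTR1, 0.350, 1.40 and 4.11 in mCKO, 0.358, 2.12 and 0.313 in CTR2 and 70.9, 60.1 and 127 in iCKO, with a difference of -6.12 ± 1.27 (adjusted p = 0.0063).

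Esr1, the oestrogen receptor alpha gene (Entrez 13982, chromosome 10, 4611989 to 5005633), was measured at 0.343, 0.261 and 0.833 CPM in CTR1, 0.963, 0.500 and 0.623 in mCKO, 3.01, 2.36 and 1.93 in CTR2 and 1059, 639.8 and 168 in iCKO, and its difference was -7.48 ± 1.13 (adjusted p = 0.0011). The MerCreMer transgene of iCKO carries sequence of an oestrogen receptor, so counts of the Esr1 gene and of the transgene cannot be told apart here. The iCKO libraries spread over a wide range, with replicate 1 the highest and replicate 3 the lowest.

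**Figure D3:**
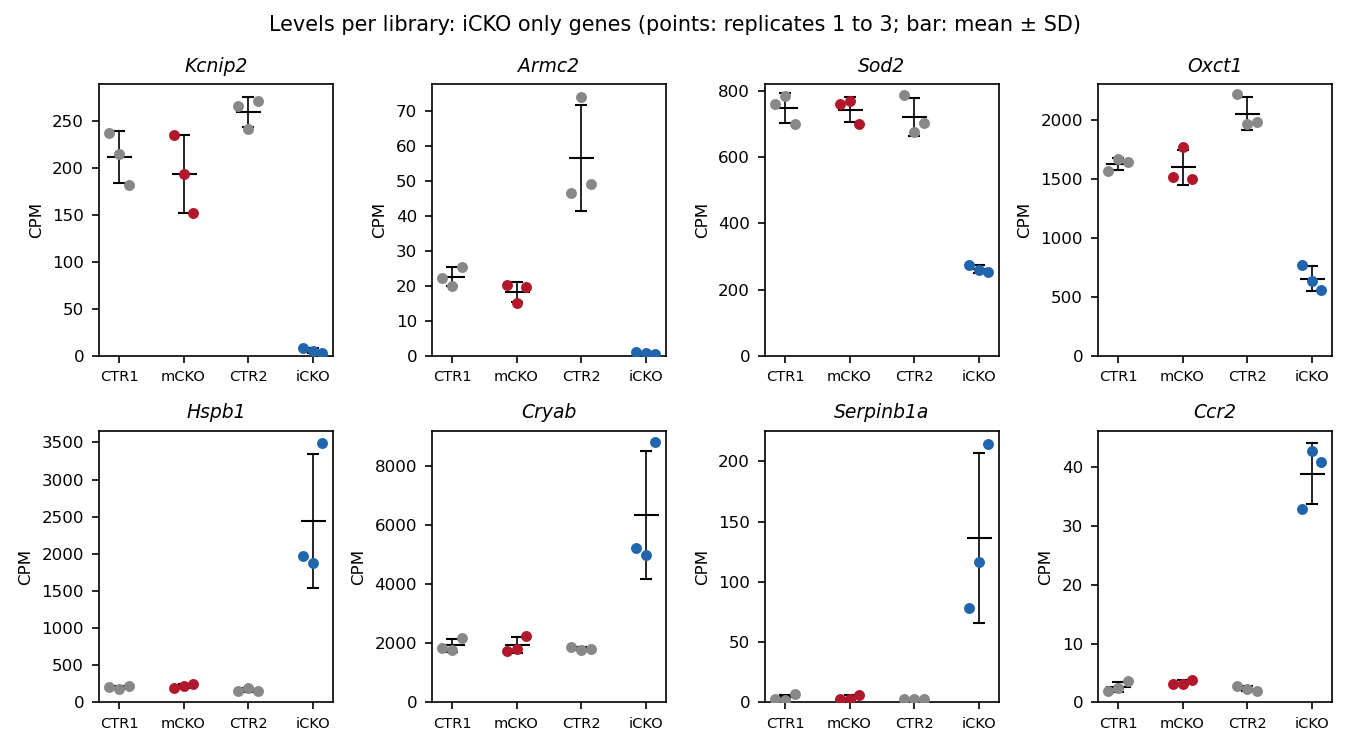
CPM in each library for 8 genes whose mCKO effect was called in neither the fit of 12 libraries nor the paired fit; points are replicates 1 to 3 and bars are the mean with SD (n = 3). Kcnip2, Armc2, Sod2 and Oxct1 were lower and Hspb1, Cryab, Serpinb1a and Ccr2 were higher in all iCKO libraries than in CTR2, while mCKO overlapped CTR1 for each.

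Most genes of mitochondrial fuel use had positive differences. Of 32 genes of fatty acid oxidation, 30 had a higher effect in mCKO than in iCKO, against 11% of all genes tested, with a median difference of 1.30 (median over all genes 0.03). Their median effect was -0.29 in mCKO and -1.58 in iCKO. In the paired analysis 19 of them fell in both models and fell further in iCKO, and 11 were called in iCKO only. These classes hold only genes also called for the difference. Over the 13871 genes tested, they held 350 genes that fell in both models and 2673 called in iCKO only in either direction. Cardiomyocyte markers moved with these genes. The summed level of 12 markers ranged from 94530 to 126300 CPM in CTR1, 80290 to 110900 in mCKO, 112600 to 125400 in CTR2 and 53420 to 62920 in iCKO, and none was at 0 in any group. Their part in the result was not tested, and in bulk tissue fewer cardiomyocytes and less RNA per cardiomyocyte cannot be told apart.

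Acadm, the medium-chain acyl-CoA dehydrogenase of beta oxidation, was measured at 1394, 1330.0 and 1212 CPM in CTR1, 1069, 1107 and 901 in mCKO, 1682, 1618 and 1646 in CTR2 and 420.5, 299 and 299 in iCKO. Both knockouts lay below their controls without overlap, and the iCKO libraries were below all others. The difference was 1.92 ± 0.22 (adjusted p = 1.9e-04), with a paired mCKO effect of -0.35 ± 0.06 (adjusted p = 0.0042) and -2.28 ± 0.16 in iCKO. Hadhb, a subunit of the mitochondrial trifunctional protein, and Mlycd, the malonyl-CoA decarboxylase that relieves the block on fatty acid import, had differences of 1.75 ± 0.17 and 1.80 ± 0.20 (adjusted p = 8.3e-05 and 1.9e-04) and paired mCKO effects of -0.30 ± 0.06 and -0.47 ± 0.07 (adjusted p = 0.012 and 0.0016). In RefSeq promoter windows of GRCm38.p6 around the gene start, the direct repeat with 1 base between its repeats that PPAR receptors bind was found on either strand in 0 of the 27 list members with a promoter and in 5 of 10999 genes tested (0.0455%). The exact repeat is so rare in these windows that 0 of 27 cannot show whether the list members lack such sites.

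Of 22 genes of the citric acid cycle and pyruvate entry, 21 had a higher effect in mCKO (median difference 1.04), and of 22 genes of ketone and branched-chain amino acid breakdown 16 did (median 1.08). Among all genes tested 11% did. Mdh1, the cytosolic malate dehydrogenase, was measured at 2718, 2813 and 2658 CPM in CTR1, 2504, 2641 and 2388 in mCKO, 3195, 3011 and 2847 in CTR2 and 818, 774 and 854 in iCKO. The mCKO libraries lay below CTR1 without overlap but close to it, and the iCKO libraries were far below all 9 others. The difference was 1.77 ± 0.16 (adjusted p = 5.4e-05), and mCKO was called in neither analysis (-0.11 ± 0.06 in the paired fit).

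Oxct1, the enzyme that activates ketone bodies for oxidation, was measured at 1564, 1663 and 1639.6 CPM in CTR1, 1517, 1768 and 1501 in mCKO, 2214, 1963 and 1976 in CTR2 and 767, 632 and 559.6 in iCKO. CTR1 and mCKO overlapped, and the iCKO libraries were below all 9 others. The difference was 1.63 ± 0.20 (adjusted p = 2.7e-04), with an mCKO effect of -0.02 ± 0.06 in the paired fit (adjusted p = 0.86). BC037032, on the opposite strand, covers 12.6% of its exonic bases. Bckdhb, a subunit of the branched-chain ketoacid dehydrogenase, fell in both models in the paired analysis (-0.41 ± 0.07 and -2.27 ± 0.18), with a difference of 1.90 ± 0.21 (adjusted p = 1.7e-04).

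Nuclear genes of oxidative phosphorylation followed, with 31 of 49 higher (median difference 0.89), against 11% of all genes tested. The mitochondrial translation list held 8 of 21 (median 0.49). That count ranged from 4 without mCKO replicate 2 or CTR2 replicate 1 to 13 without iCKO replicate 3, and was 5 without CTR1 replicate 1, 2 or 3 or iCKO replicate 2. Sdhd, a membrane anchor of complex II, was measured at 762, 747 and 748 CPM in CTR1, 699, 732 and 737 in mCKO, 732, 649 and 643 in CTR2 and 297, 264 and 299 in iCKO. The mCKO libraries were just below CTR1, without overlap, and the iCKO libraries were below all 9 others. The mCKO effect was -0.05 ± 0.06 in the paired fit (adjusted p = 0.63) and the iCKO effect -1.23 ± 0.11, with a difference of 1.18 ± 0.16 (adjusted p = 5.7e-04). Ndufs7 of complex I had a difference of 1.42 ± 0.18 (adjusted p = 4.1e-04) and a paired mCKO effect of -0.22 ± 0.06 (adjusted p = 0.042). Sod2, the mitochondrial superoxide dismutase (Entrez 20656, chromosome 17, 13007839 to 13018119), was measured at 759.6, 785 and 699 CPM in CTR1, 760.4, 769 and 700.2 in mCKO, 787, 676 and 703 in CTR2 and 275, 259 and 253 in iCKO. All 9 libraries other than iCKO lay between 676 and 787 CPM, and the difference was 1.45 ± 0.17 (adjusted p = 2.0e-04).

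Of 18 PPAR, ERR and PGC-1 regulators of these genes, 9 had a higher and 1 a lower effect in mCKO (median difference 0.72). Among all genes tested, 11% were higher and 9.88% lower. Perm1, a muscle cofactor of PGC-1 and ERR, was measured at 593, 571 and 476 CPM in CTR1, 460.3, 451 and 327 in mCKO, 785, 608 and 694 in CTR2 and 127, 102 and 65.1 in iCKO, and its difference was 2.43 ± 0.32 (adjusted p = 4.9e-04), with a paired mCKO effect of -0.41 ± 0.07 (adjusted p = 0.0028). Esrra and Esrrb, which encode ERR alpha and beta, had differences of 0.79 ± 0.16 and 1.87 ± 0.26 (adjusted p = 0.0053 and 6.8e-04). In the paired fit Esrra was lower in mCKO (-0.47 ± 0.07, adjusted p = 0.0016) and Esrrb was not called (-0.18 ± 0.07, adjusted p = 0.093). Of 24 genes of glycolysis and glucose uptake, 10 were higher and 1 was lower, and the count of lower genes was 2 without CTR2 replicate 2 or iCKO replicate 1, with scaling by library totals and with DESeq2. Slc2a4, the insulin-responsive glucose transporter GLUT4, was measured at 516, 585 and 508 CPM in CTR1, 531, 508 and 421 in mCKO, 694, 739 and 640.4 in CTR2 and 176, 139.6 and 100.5 in iCKO, with a difference of 2.18 ± 0.26 (adjusted p = 2.8e-04). Pfkm, the muscle phosphofructokinase, had a difference of 1.96 ± 0.30 (adjusted p = 0.0011), and Gm26513 covers 10.2% of its exonic bases.

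Of 30 ion channel and conduction genes 13 had a higher effect in mCKO (median difference 1.13), and of 25 calcium handling genes 8 were higher and 1 lower (median 0.36), against 11% and 9.88% of all genes tested. The count of 1 was 2 without mCKO replicate 3 or with the replicate block in the mCKO experiment, and 3 without iCKO replicate 1, with scaling by library totals or with DESeq2. Pln, phospholamban, the inhibitor of the calcium pump, was measured at 7474, 7162 and 6509.5 CPM in CTR1, 6692, 6648 and 5733 in mCKO, 9096, 8218 and 8504 in CTR2 and 2131, 2135 and 2252 in iCKO. The mCKO and CTR1 libraries overlapped, and the iCKO libraries were below all 9 others. The difference was 1.84 ± 0.16 (adjusted p = 5.4e-05), with a paired mCKO effect of -0.14 ± 0.05 (adjusted p = 0.098). Gm47644, on the opposite strand, covers 59.6% of the exonic bases of Pln. Atp2a2, the calcium pump SERCA2, fell in both models in the paired analysis (-0.42 ± 0.06 and -1.88 ± 0.22), with a difference of 1.51 ± 0.29 (adjusted p = 0.0037).

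Hrc, a calcium-binding protein of the sarcoplasmic reticulum, and Kcnj3, a subunit of the acetylcholine-gated potassium channel, had differences of 2.36 ± 0.27 and 2.76 ± 0.44 (adjusted p = 2.2e-04 and 0.0015). Hrc had a paired mCKO effect of -0.30 ± 0.06 (adjusted p = 0.0091). Kcnj3 was not called in mCKO in the paired fit (-0.01 ± 0.08), and Gm26794, on the opposite strand, covers 31.1% of its exonic bases. Of 23 adrenergic and natriuretic genes 4 were higher and 1 lower, against 11% and 9.88% of all genes tested. The count of 4 was 2 without CTR1 replicate 1 or 2, mCKO replicate 1 or 2, CTR2 replicate 2 or 3, or iCKO replicate 2, and with scaling by library totals. It was 7 with the replicate block in the mCKO experiment, which gave 2 lower, and 7 without replicate 3 of both mCKO and CTR1. Adra1a, the alpha 1A adrenergic receptor, was measured at 62.1, 80.1 and 43.6 CPM in CTR1, 63, 52.2 and 33.1 in mCKO, 86.8, 127 and 104 in CTR2 and 14.8, 10.7 and 8.33 in iCKO, and its difference was 2.91 ± 0.41 (adjusted p = 7.0e-04). Of 23 muscle ubiquitin ligase and autophagy genes 5 were higher, and 8 without replicate 3 of CTR1, mCKO or iCKO or with the replicate block in the mCKO experiment. Fbxo40, a muscle F-box protein gene, had an mCKO effect of -0.04 ± 0.06 in the paired fit and a difference of 2.14 ± 0.26 (adjusted p = 2.8e-04).

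Of 29 sarcomere genes, 5 had a higher and 5 a lower effect in mCKO (median difference 0.32), against 11% and 9.88% of all genes tested. The count of higher genes was 9 without mCKO replicate 3, 8 without replicate 3 of both mCKO and CTR1, and 10 with the replicate block in the mCKO experiment. The count of lower genes was 3 without replicate 3 of CTR1, mCKO or iCKO, of both mCKO and CTR1, mCKO replicate 1 or iCKO replicate 2. Tnni3, cardiac troponin I, had a difference of 1.24 ± 0.24 (adjusted p = 0.0039), and Mb, the oxygen-binding myoglobin of muscle, one of 2.02 ± 0.22 (adjusted p = 1.7e-04). Both fell in both models in the paired analysis, with effects of -0.42 ± 0.06 and -0.27 ± 0.05 in mCKO and of -1.63 ± 0.20 and -2.25 ± 0.17 in iCKO. Gm49540, on the opposite strand, covers 27.6% of the exonic bases of Mb.

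The stress and fetal programme list ran the other way, with 12 of 16 genes lower and 1 higher for the difference (9.88% of all genes were lower), and a median difference of -1.67. Its median effect was -0.05 in mCKO and 1.71 in iCKO. Cryab, the small heat shock protein alpha B crystallin (Entrez 12955, chromosome 9, 50745951 to 50756636), was measured at 1841, 1783 and 2179 CPM in CTR1, 1738, 1822 and 2247 in mCKO, 1878, 1766 and 1806 in CTR2 and 5233, 4991 and 8841 in iCKO. All 9 libraries other than iCKO lay between 1738 and 2247 CPM, and the difference was -1.81 ± 0.29 (adjusted p = 0.0015). Hspb2, on the opposite strand, covers 17% of the exonic bases of Cryab. Acta1, the skeletal actin of the fetal heart, was measured at 719, 443 and 371 CPM in CTR1, 413, 808 and 1094 in mCKO, 174, 90.6 and 299 in CTR2 and 2131, 1701 and 1910.3 in iCKO. Its difference was -2.76 ± 0.60 (adjusted p = 0.0078), and CTR1 and mCKO overlapped. Myl4, the atrial and fetal myosin light chain, had a difference of -3.47 ± 0.74 (adjusted p = 0.0073), and Tnnt3, the fast skeletal troponin T, one of -4.09 ± 0.50 (adjusted p = 2.9e-04), with a paired mCKO effect of 1.76 ± 0.42 (adjusted p = 0.018).

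Nppa, which encodes atrial natriuretic peptide, rose in both models in the paired analysis (2.37 ± 0.10 and 4.53 ± 0.45) and rose further in iCKO. Levels were 316, 146 and 253 CPM in CTR1, 1489, 663 and 1589 in mCKO, 253, 124 and 340.1 in CTR2 and 3986, 3912 and 8283 in iCKO. Knockout libraries were above their controls without overlap in each model. The difference was -2.11 ± 0.63 (adjusted p = 0.034), and it was not called without CTR1 replicate 1 or 3, mCKO replicate 1 or 2, CTR2 replicate 1 or 2, or iCKO replicate 3 (adjusted p up to 0.0801). An antisense gene covers 61.5% of the exonic bases of Nppa. Summed atrial markers ranged from 409 to 583 CPM in CTR1 and 943 to 1879 in mCKO. They ranged from 483 to 699 in CTR2 and 4062 to 8435 in iCKO. Nppa itself made up most of the sum in mCKO and iCKO, so the sum does not show how the other markers moved. The median effect over the 10 tested markers was 0.02 in mCKO and -0.46 in iCKO. That list of 12 markers includes Nppa, 1 of its members was at 0 throughout CTR1, mCKO and iCKO each, and 2 of 10 tested markers were higher and 2 lower for the difference. Among all genes tested, 11% were higher and 9.88% lower. The 2 lower calls became 1 without CTR1 replicate 1 or 3, mCKO replicate 1 or 2, CTR2 replicate 1 or 2, or iCKO replicate 3.

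Protein-folding and protein-degradation genes were lower for the difference in part. Among all genes tested, 9.88% were lower and 11% higher. Of 20 cytosolic heat shock genes 6 were lower and 1 was higher (median difference -0.31), the higher one being lost without any 1 of 10 libraries, all except mCKO replicate 1 and iCKO replicate 3, without replicate 3 of both mCKO and CTR1, and with scaling by library totals. Hspb1, the small heat shock protein HSP27 (Entrez 15507, chromosome 5, 135887919 to 135889563), was measured at 205, 176 and 222 CPM in CTR1, 196, 225 and 251 in mCKO, 155, 194 and 157 in CTR2 and 1976, 1875 and 3486 in iCKO. The 9 libraries other than iCKO lay close together, and the iCKO libraries were far above them. The difference was -3.70 ± 0.32 (adjusted p = 5.4e-05), with a paired mCKO effect of 0.16 ± 0.08 (adjusted p = 0.21). Hspa1a and Hspa1b, near-identical genes of inducible HSP70 between which reads can be split, had differences of -3.62 ± 0.52 and -2.77 ± 0.32 (adjusted p = 8.3e-04 and 2.3e-04). Gm20481, on the opposite strand, covers 19% of the exonic bases of Hspa1a. Hsp90aa1, inducible HSP90, rose in both models in the paired analysis (0.56 ± 0.10 and 1.95 ± 0.15), with a difference of -1.35 ± 0.19 (adjusted p = 8.1e-04) and controls that also differed (-0.71 ± 0.14, adjusted p = 0.039).

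The heat shock element, which is bound by HSF1 and was searched on both strands, was found in the promoters of 2 of 16 list members with one in the RefSeq table, against 63 of 10999 genes tested (0.573%). The 2 genes are shown because they are the list members with the element, and Hsph1 alone was called for the difference; they were chosen for the element after their values were known. Sequences are 29 bases on the gene's strand in GRCm38.p6, from chr5:149636280-149636308 (minus strand) and chr9:18292260-18292288 (plus strand), with the matched bases in capitals.
Hsph1: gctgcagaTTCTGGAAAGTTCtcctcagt
Chordc1: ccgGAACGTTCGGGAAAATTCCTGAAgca
The Chordc1 stretch holds 3 overlapping matches and the Hsph1 stretch 1. Hsph1, an HSP110 co-chaperone gene, was measured at 54.3, 67.6 and 46.8 CPM in CTR1, 56.7, 69.7 and 70.6 in mCKO, 48.4, 35.8 and 47.5 in CTR2 and 111, 101 and 90.4 in iCKO, with a difference of -0.98 ± 0.24 (adjusted p = 0.014). Chordc1, a co-chaperone of HSP90, was measured at 33.6, 26.4 and 30.8 CPM in CTR1, 36.2, 34.1 and 35 in mCKO, 37.8, 33.7 and 33.9 in CTR2 and 38.7, 38.4 and 29.5 in iCKO, and its difference of 0.20 ± 0.19 was not called (adjusted p = 0.5). A match in these letters is a description of the sequence and not of a bound site.

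Of 31 proteasome subunits 16 were lower for the difference (median -0.77), against 9.88% of all genes tested. The count fell to 8 without mCKO replicate 1 or CTR2 replicate 3 and 10 without CTR2 replicate 1, and rose to 28 without iCKO replicate 1. With scaling by library totals it was 30. Psma5, an alpha-ring subunit, was measured at 38.3, 40.7 and 39.5 CPM in CTR1, 39.6, 40.4 and 43.4 in mCKO, 36.2, 40.3 and 36.9 in CTR2 and 87.4, 98.5 and 150.3 in iCKO. The 9 libraries other than iCKO lay between 36.2 and 43.4 CPM. The difference was -1.51 ± 0.25 (adjusted p = 0.0016), and Psmd14, the deubiquitinase of the lid, had one of -1.27 ± 0.22 (adjusted p = 0.0024). Neither was called in mCKO in the paired fit (0.07 ± 0.07 and -0.07 ± 0.07).

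Of 18 endoplasmic reticulum chaperones 5 were lower and 1 was higher, against 9.88% and 11% of all genes tested. The lower count was 3 without mCKO replicate 1 and 8 without mCKO replicate 3 or with the replicate block in the mCKO experiment. Pdia6, a protein disulfide isomerase, had a difference of -1.37 ± 0.31 (adjusted p = 0.01). Herpud1, a membrane protein of the same compartment that aids degradation, was the higher gene. Levels were 169.8, 163 and 183 CPM in CTR1, 208, 144 and 180.5 in mCKO, 302, 928 and 286 in CTR2 and 93.9, 81.8 and 71.4 in iCKO. CTR2 replicate 2 was far above the other CTR2 libraries, the iCKO libraries were below all 9 others, and the difference was 2.66 ± 0.53 (adjusted p = 0.0048).

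Among all genes tested, 9.88% were lower and 11% higher for the difference, and the higher counts of the stress-response lists were near or below that share. Of 25 p53 targets 8 were lower and 2 higher for the difference (median -0.51), with 5 lower without mCKO replicate 1 and 4 higher without iCKO replicate 3. Btg2, an antiproliferative p53 target, was measured at 29.3, 34.6 and 38.1 CPM in CTR1, 39.4, 37.7 and 40.6 in mCKO, 30.4, 48 and 33.2 in CTR2 and 154, 249 and 212 in iCKO. CTR1 and mCKO overlapped, the iCKO libraries were above all 9 others, and the difference was -2.25 ± 0.29 (adjusted p = 3.8e-04). Sesn1, a p53 target that dampens mTORC1, was lower in iCKO (-2.23 ± 0.29) and had a difference of 2.19 ± 0.40 (adjusted p = 0.003). Its level in CTR2 replicate 2 was 439 CPM, against 218 and 246 in CTR2 replicates 1 and 3. With Ccng1, described above, Sesn1 makes up the 2 higher genes of this list.

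Of 25 antioxidant and NRF2 genes 5 were lower and 2 higher, against 9.88% and 11% of all genes tested. The lower count ranged from 2 without mCKO replicate 1 to 8 without CTR2 replicate 2, and was 3 without mCKO replicate 2 or CTR2 replicate 1 or 3. The higher count was 1 without CTR1 replicate 1 or 2, mCKO replicate 2, CTR2 replicate 1 or 3, or iCKO replicate 1 or 2, and with scaling by library totals. Of 23 ATF4, serine and one-carbon genes 5 were lower and 2 higher (median -0.24), with medians of 0.40 in mCKO and 0.58 in iCKO. The lower count was 3 without replicate 3 of CTR1, CTR2 or iCKO, or of both mCKO and CTR1, mCKO replicate 2 or iCKO replicate 2, and the higher count was 1 without CTR1 replicate 1 or 3, mCKO replicate 1 or 2, CTR2 replicate 2 or 3, or iCKO replicate 2 or 3, and with limma-voom or scaling by library totals. Psat1, an enzyme of serine synthesis, rose in both models in the paired analysis (0.90 ± 0.19 and 2.49 ± 0.23), with a difference of -1.53 ± 0.39 (adjusted p = 0.017). Of 20 immediate early genes 10 were lower (median -1.52), and Egr1, a rapidly induced transcription factor, had a difference of -2.93 ± 0.47 (adjusted p = 0.0016).

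Extracellular matrix genes had the lowest median difference of the 32 pathway lists, -2.45. Of 34 such genes 25 were lower and 1 higher (0 higher without CTR1 replicate 1), against 9.88% and 11% of all genes tested. The median effect of the 34 was 0.34 in mCKO and 2.87 in iCKO. In the paired analysis 23 of the 34 rose in mCKO, against 7.32% of all genes in that fit. Of the 23, 18 rose in both models and were also called for the difference. Genes that rose in both models without that call are not among the 18. Postn, periostin of activated fibroblasts (Entrez 50706, chromosome 3, 54359267 to 54391041), was measured at 21.8, 18.7 and 36.3 CPM in CTR1, 35, 26.9 and 50.6 in mCKO, 21.8, 13.1 and 18.5 in CTR2 and 676, 1158 and 995 in iCKO. The mCKO libraries overlapped CTR1, although each was above the CTR1 library of the same number, and the iCKO libraries were far above all 9 others. The difference was -5.18 ± 0.46 (adjusted p = 5.4e-05), from 0.57 ± 0.08 in the paired mCKO fit and 5.73 ± 0.37 in iCKO.

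Tnc, the matrix glycoprotein tenascin C of injured tissue (Entrez 21923, chromosome 4, 63959785 to 64047015), was measured at 1.17, 0.991 and 3.28 CPM in CTR1, 1.62, 2.55 and 10.8 in mCKO, 1.74, 1.93 and 2.24 in CTR2 and 361, 458 and 278 in iCKO. Replicate 3 was the highest in both CTR1 and mCKO, and the difference was -6.08 ± 0.91 (adjusted p = 9.9e-04), with a paired mCKO effect of 1.33 ± 0.25 (adjusted p = 0.0064). Timp1, a metalloproteinase inhibitor, was measured at 1.71, 2.35 and 10.5 CPM in CTR1, 4.38, 7.10 and 30.1 in mCKO, 2.55, 2.60 and 2.87 in CTR2 and 204, 293 and 401 in iCKO, with a difference of -5.30 ± 1.06 (adjusted p = 0.0051) and a paired mCKO effect of 1.51 ± 0.13 (adjusted p = 9.1e-05). Col1a1, the main chain of fibrillar collagen, had a difference of -3.35 ± 0.49 (adjusted p = 8.4e-04) and a paired mCKO effect of 0.46 ± 0.08 (adjusted p = 0.0057).

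Fibroblast markers moved with the matrix genes. Their summed level of 14 genes, which include Col1a1 and Postn, ranged from 2917 to 4564 CPM in CTR1, 3125 to 5386 in mCKO, 2467 to 3005 in CTR2 and 5051 to 7531 in iCKO, with none at 0, and 7 of 14 were lower and 1 higher for the difference (2 higher with the replicate block or without replicate 3 of both mCKO and CTR1). Among all genes tested, 9.88% were lower and 11% higher. The part of the fibroblast markers in the matrix result was not tested.

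Macrophage and monocyte markers were lower for the difference in 11 of 20 (median -1.14), against 9.88% of all genes tested. Summed levels were 665 to 966 CPM in CTR1, 880.0 to 1546 in mCKO, 505 to 689 in CTR2 and 1333 to 2848 in iCKO, with none at 0. In the paired analysis 15 of the 20 rose in mCKO, against 7.32% of all genes in that fit. Of the 15, 10 rose in both models and were called for the difference, with the larger effect in iCKO. Genes that rose in both models without that call are not among the 10. Ccr2, the receptor of recruited monocytes, was measured at 1.86, 2.50 and 3.56 CPM in CTR1, 3.06, 3.15 and 3.82 in mCKO, 2.81, 2.31 and 1.93 in CTR2 and 33, 42.8 and 40.9 in iCKO. CTR1 and mCKO overlapped, the iCKO libraries were above all 9 others, and the difference was -3.71 ± 0.33 (adjusted p = 5.4e-05). Mrc1, the mannose receptor of resident macrophages, rose in both models in the paired analysis (0.51 ± 0.08 and 1.60 ± 0.17), with a difference of -1.05 ± 0.22 (adjusted p = 0.0073).

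Of 23 chemokines and cytokines 7 were lower (median -2.0), against 9.88% of all genes tested, and 11 were lower without mCKO replicate 3. Ccl7 and Ccl12, ligands of CCR2, had differences of -5.19 ± 0.75 and -3.58 ± 0.63 (adjusted p = 8.4e-04 and 0.0027) and paired mCKO effects of 1.03 ± 0.24 and 1.0 ± 0.24 (adjusted p = 0.017 and 0.02). Ccl12 was measured at 1.81, 1.82 and 4.76 CPM in CTR1, 5.95, 3.75 and 6.44 in mCKO, 1.12, 0.289 and 0.469 in CTR2 and 14, 15.4 and 14 in iCKO, and its controls differed (2.16 ± 0.49, adjusted p = 0.048). Neutrophil markers were few and low, at 4.65 to 11.6 CPM summed in CTR1, 6.80 to 14.3 in mCKO, 7.77 to 19.5 in CTR2 and 39.5 to 98.6 in iCKO, with 1 of 10 at 0 throughout mCKO, and with 2 of 8 tested members lower. That count was 1 without CTR1 replicate 3, mCKO replicate 2 or CTR2 replicate 3, without replicate 3 of both mCKO and CTR1, and with limma-voom.

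Cell cycle genes were lower in 7 of 24 (median -1.48), against 9.88% of all genes tested. The count ranged from 3 without CTR1 replicate 2 or CTR2 replicate 3 to 13 without iCKO replicate 1, was 4 without mCKO replicate 2 or iCKO replicate 2 or 3, and was 3 with limma-voom. Mcm5, a subunit of the replicative helicase, was measured at 6.36, 6.88 and 5.14 CPM in CTR1, 8.23, 7.10 and 6.11 in mCKO, 3.12, 4.67 and 4.59 in CTR2 and 14.4, 20.8 and 20.8 in iCKO, with a difference of -1.95 ± 0.31 (adjusted p = 0.0014).

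Interferon-stimulated genes had similar median effects, 0.70 in mCKO and 0.77 in iCKO, and a median difference of -0.13. None of 23 was called for the difference by edgeR, with 4 at an unadjusted p under 0.05, 2 called by DESeq2, 2 with the replicate block in the mCKO experiment, 2 with scaling by library totals and none by limma-voom. The count was 1 without CTR1 replicate 2 or mCKO replicate 1, 2 without CTR2 replicate 1 and 3 without iCKO replicate 3. This does not show that the effects were equal. In the paired fit 12 of the 23 rose in mCKO, against 7.32% of all genes in that fit. The interferon-induced Gbp10 and Gbp6, described above with their limits, are not among the 23 and were called for the difference (6.52 and 5.32).

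Of 35 splicing regulators 7 were lower and 1 higher (median -0.35), and of 31 DEAD-box helicases other than Ddx5 4 were lower, against 9.88% of all genes tested. The count for the helicases was 7 without mCKO replicate 3, CTR2 replicate 2 or iCKO replicate 1 or 2 and with the replicate block in the mCKO experiment, 8 without replicate 3 of both mCKO and CTR1, 10 with DESeq2 and 12 with scaling by library totals. Khdrbs1, the splicing regulator Sam68, was measured at 63.5, 61.9 and 67.5 CPM in CTR1, 56.2, 57.7 and 59.5 in mCKO, 58, 52.9 and 52.6 in CTR2 and 98.4, 108 and 108 in iCKO. The iCKO libraries were above all others, and mCKO lay below CTR1 without overlap although its effect was called in neither analysis (-0.15 ± 0.10 and -0.15 ± 0.06). The difference was -1.09 ± 0.14 (adjusted p = 4.7e-04).

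Rbfox1, a splicing regulator of muscle and brain, was the higher gene. Levels were 49.6, 59.5 and 29.5 CPM in CTR1, 25.4, 22.5 and 11.8 in mCKO, 66.3, 73.9 and 58.6 in CTR2 and 7.38, 6.20 and 3.50 in iCKO, without overlap within either model. It fell in both models in the paired analysis (-1.22 ± 0.09 and -3.49 ± 0.29) and had a difference of 2.32 ± 0.47 (adjusted p = 0.0054). Ddx21, a nucleolar helicase, had a difference of -0.85 ± 0.17 (adjusted p = 0.0046).

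Of 26 ribosome biogenesis genes 10 were lower (median -0.57), against 9.88% of all genes tested (11% were higher). The 10 include Rrp12 and Fbl, factors of ribosomal RNA processing, with differences of -1.47 ± 0.27 and -1.16 ± 0.22 (adjusted p = 0.0035 and 0.0037). The paired mCKO effect of Rrp12 was 0.55 ± 0.13 (adjusted p = 0.037). Of 74 cytosolic ribosomal proteins 1 was lower and 1 higher, and these were Rpl3 and Rpl3l. They are paralogs, and Rpl3l is the form of striated muscle. The median difference over the 74 was -0.78, from median effects of 0.08 in mCKO and 0.87 in iCKO. The small number of calls therefore does not show that the effects were equal. The lower count was 8 with the replicate block in the mCKO experiment, 5 without iCKO replicate 1, 21 without mCKO replicate 3, 2 without replicate 3 of both mCKO and CTR1, 3 with DESeq2 and 4 with scaling by library totals. Rpl3l was measured at 311, 319.7 and 321 CPM in CTR1, 151, 187 and 219 in mCKO, 271, 316 and 241 in CTR2 and 56.2, 48.1 and 71.5 in iCKO, and Rpl3 at 191, 160.0 and 256 CPM in CTR1, 254, 235 and 342 in mCKO, 186, 166 and 181 in CTR2 and 545, 582 and 929 in iCKO. Rpl3l was lower in both knockouts without overlap, and Rpl3 was higher in all iCKO libraries than in all 9 others. The differences were 1.46 ± 0.25 and -1.50 ± 0.33 (adjusted p = 0.0023 and 0.0085), with paired mCKO effects of -0.78 ± 0.09 and 0.47 ± 0.06 (adjusted p = 7.1e-04 and 0.0013).

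**Figure D4:**
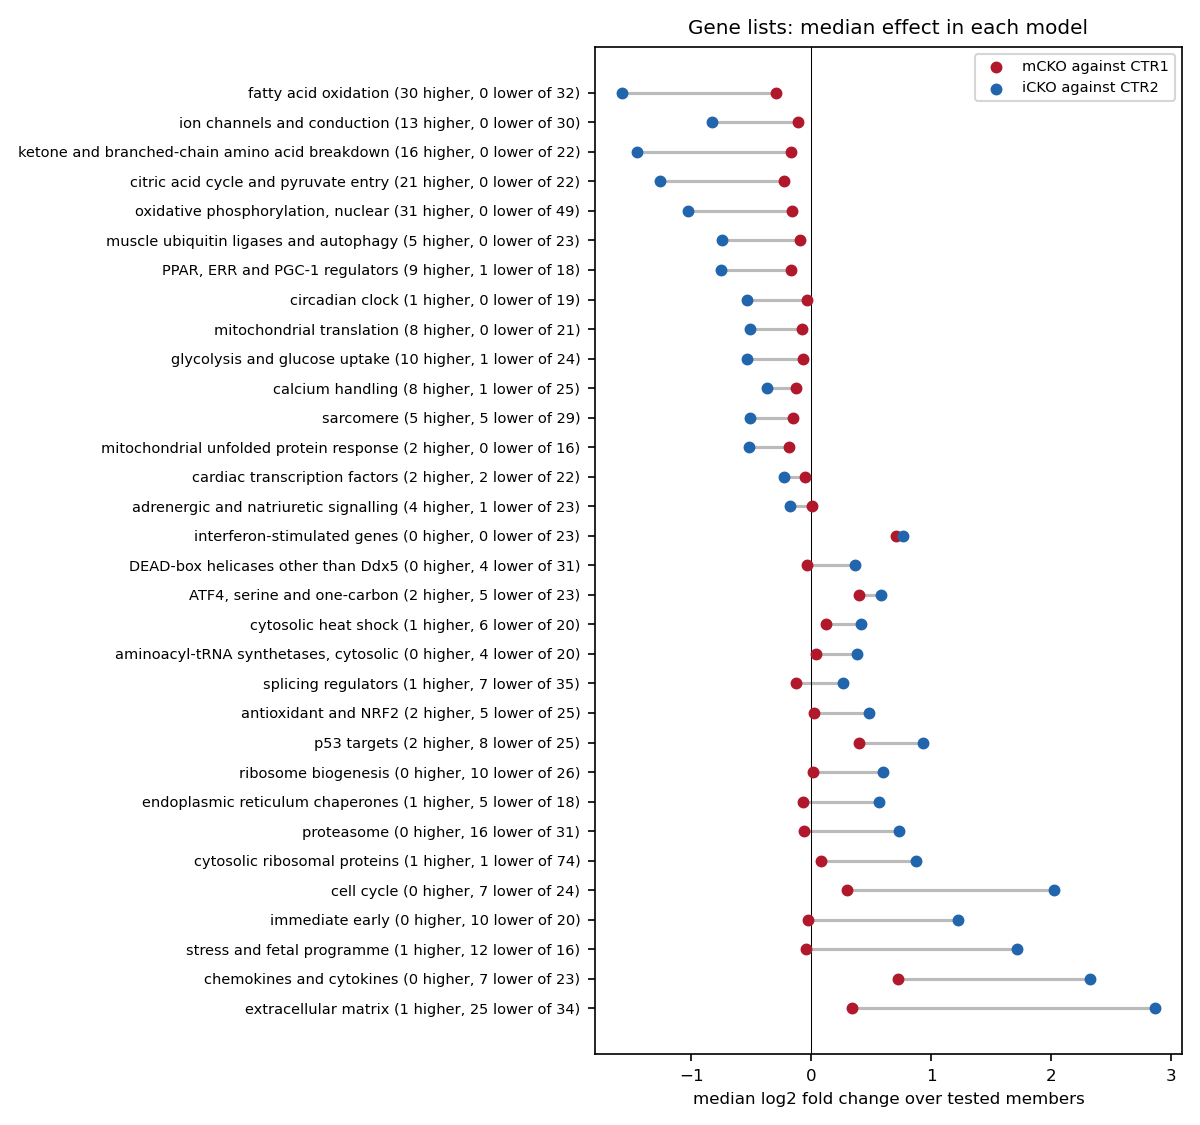
Median log2 fold change over the tested members of 32 gene lists in mCKO (red) and iCKO (blue), ordered by the median difference, with the number of members called higher and lower for the difference beside each name. Fuel-use and ion channel lists at the top lie further left in iCKO, and matrix, cytokine and stress lists at the bottom lie further right, while the 2 points of the interferon-stimulated genes almost coincide.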

How the data were processed

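The 12 mRNA libraries of male left ventricle were prepared with a stranded kit per the labels' protocols. The deposited values are raw gene counts that the authors made from reads, in 1 table for each experiment; HISAT2, DESeq and GRCm38 are named in the submitters' processing notes, without versions, and no source used here names the counting tool, its strand setting or its annotation. Between 19682268 and 25871882 counts were assigned per library.

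The tables were joined on gene identifier and fitted together in R 4.3.3 with edgeR 4.0.16 (TMM scaling, filterByExpr with a minimum count of 10 and total of 15, robust quasi-likelihood test, group means, no block). Two-sided p-values were adjusted by Benjamini and Hochberg over all 13871 genes and called below 0.05. The difference was (mCKO minus CTR1) minus (iCKO minus CTR2). Separate fits of 6 libraries gave the paired analysis. Alternatives were other scaling, no filter, DESeq2 1.42.0, limma-voom 3.58.1, replicate blocks, separate fits and leaving out libraries. The edgeR script was tested on simulated data.

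The labels do not say what a replicate number marks. Deviations from the group means of same-numbered mCKO and CTR1 libraries correlated at r = 0.415, 0.495 and 0.796, each over 0.1, and these were treated as paired. Unlike numbers also correlated, at 0.467 for CTR1 replicate 1 with mCKO replicate 2 and 0.506 for CTR1 replicate 2 with mCKO replicate 1, so numbers 1 and 2 were not told apart. For iCKO and CTR2 the values were 0.055, -0.086 and -0.144, and no pairing was assumed. The closest replicates differed by more than sampling noise (chi-square per degree of freedom 6.48), so each library counted as 1 sample.

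Named genes are Ddx5, Ddx17 and Camk2d, up to 6 genes per class and direction with the largest difference, an average log2 CPM of at least 1 and groups that do not overlap in a model with a call, and up to 4 called members of each list with the smallest adjusted p; only some of this pool are printed. Genes outside it were chosen after their values were seen, namely Dgki, Wdr72, Lif, Hsph1, Chordc1 and the genes from the paired classes. The members and lists were chosen with earlier results of these data known. Gene positions are from the GRCm38.p6 annotation and promoter sequences from RefSeq on the same build.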

Additional observations from a re-analysis of the deposited data

Results flagged for a closer look

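The difference of effects was itself tested for every gene, and it was called for 1521 genes with a higher and 1371 with a lower effect in mCKO than in iCKO. The genes named in the text that were called are listed here with their log2 difference, because their effect under the same contrast differed between the models. Experiment, tamoxifen, kind of Cre and time since deletion cannot be told apart in any of them, and no explanation was tested.

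Genes called in opposite directions in the fit of 12 libraries are given first, although Dgki was near the limit of 3 counts in iCKO, with values on the log2 scale. Abat differed by 2.57, Prkcq by 2.93, Cacna1h by 2.63 and Dgki by 5.41. Wdr72 differed by 4.06.

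Genes called in mCKO only follow. Klhdc7a differed by 2.44, Gria3 by 2.38 and Nqo1 by -1.14.

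Genes called in both models in 1 direction differed in the size of the effect. Gdf15 differed by -1.60, Ncam1 by -1.03, Map1a by -1.13 and Mybpc2 by -3.08. Magix differed by 2.61, Acat1 by 0.65, Kcnv2 by 4.89 and Lif by -2.89.

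Next are genes from the extremes of those called in iCKO only in the fit of 12 libraries; Tnc, Timp1, Asb14 and Acsm5 were also called in mCKO in the paired analysis. Tnc differed by -6.08, Tubb3 by -5.33, Timp1 by -5.30 and Serpinb1a by -5.69. Esr1 differed by -7.48, Chil3 by -6.12, Asb14 by 5.41 and Acsm5 by 5.58. Gbp10 differed by 6.52, Gbp6 by 5.32, Armc2 by 5.73 and Kcnip2 by 5.37.

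The named genes of energy metabolism and its regulators had positive values. Acadm differed by 1.92, Hadhb by 1.75, Mlycd by 1.80 and Sdhd by 1.18. Ndufs7 differed by 1.42, Mdh1 by 1.77, Oxct1 by 1.63 and Bckdhb by 1.90. Perm1 differed by 2.43, Esrra by 0.79, Esrrb by 1.87 and Slc2a4 by 2.18. Pfkm differed by 1.96.

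Cardiomyocyte, channel and fetal genes had values of both signs. Pln differed by 1.84, Atp2a2 by 1.51, Hrc by 2.36 and Kcnj3 by 2.76. Tnni3 differed by 1.24, Acta1 by -2.76, Myl4 by -3.47 and Fhl1 by -2.60. Cryab differed by -1.81, Nppa by -2.11, Adra1a by 2.91 and Mb by 2.02. Tnnt3 differed by -4.09, Fbxo40 by 2.14 and Asb15 by 4.29.

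Stress, protein-folding and degradation genes had values of both signs. Hspb1 differed by -3.70, Hspa1a by -3.62, Hspa1b by -2.77 and Hsp90aa1 by -1.35. Hsph1 differed by -0.98, Pdia6 by -1.37, Herpud1 by 2.66 and Psma5 by -1.51. Psmd14 differed by -1.27, Btg2 by -2.25, Ccng1 by 1.75 and Sesn1 by 2.19. Psat1 differed by -1.53, Sod2 by 1.45 and Egr1 by -2.93.

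The named genes of the matrix, of immune cells and of the cell cycle had negative values. Postn differed by -5.18, Col1a1 by -3.35, Ccr2 by -3.71 and Mrc1 by -1.05. Ccl7 differed by -5.19, Ccl12 by -3.58 and Mcm5 by -1.95.

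RNA-processing and ribosome genes had values of both signs. Rbfox1 differed by 2.32, Khdrbs1 by -1.09, Ddx21 by -0.85 and Rpl3 by -1.50. Rpl3l differed by 1.46, Rrp12 by -1.47 and Fbl by -1.16.

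Genes taken from the paired analysis after its classes were known are last. Ubxn10 differed by 5.20, Edn3 by 4.15, Fkbp10 by -1.93 and Gadd45g by -3.11. Hand2 differed by -1.0, Slc9a3 by 3.28, Fv1 by 1.68 and Ssbp2 by -0.77. Riok3 differed by -0.76.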

How the results depend on the processing

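All 94 named genes called for the difference kept their direction in all 1880 combinations of gene and alternative setting, 42 of which lost the call, and 86 of the 94 kept the call under every setting. Depth limits genes near 3 counts per library. The number of genes with a higher effect stayed within 1.5 times under every setting, and so did the iCKO only class. Scaling by library totals gave 2145 lower genes, and leaving out 1 library gave between 910 (without mCKO replicate 1) and 1615 lower genes.

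The small classes were not stable, and the cause was not tested. With 1 library left out, opposite genes numbered 0 to 6, mCKO only genes 0 to 10, genes called in both in 1 direction 0 to 11 and genes called in neither 24 to 77. Without CTR1 replicate 1 or 2 the opposite class was empty, and it held 1 gene without CTR1 replicate 3 or mCKO replicate 2. The mCKO only class was empty without CTR1 replicate 1, 2 or 3 or mCKO replicate 2. DESeq2 gave 17 opposite, 27 mCKO only and 80 genes in 1 direction, and limma-voom 5 of the last. Without replicate 3 of both mCKO and CTR1 there were 3 opposite genes and 1 in 1 direction. Separate fits without a block gave 0 opposite, 0 mCKO only and 0 in 1 direction with edgeR, and 80 in neither.

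With the replicate block in the mCKO experiment, there were 8 opposite, 7 mCKO only and 16 genes in 1 direction, and 79 in neither. That block treats same-numbered libraries as paired, although numbers 1 and 2 were not told apart. The replicate block in both experiments gave 89 in neither. The paired analysis, with the replicate block in a separate fit and chosen after seeing the data, gave 104, 81, 640 and 74. The block changed the call for the difference of no named gene called. For 2 genes that were not called the sign turned with single libraries left out, with Ddx17 from -0.38 to 0.13 and Camk2d from -0.29 to 0.19.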
